A study of Mus musculus with 30 samples.

Results

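The genes described here encode the Wnt ligands, their Frizzled receptors and the secreted Frizzled-related and Dickkopf proteins, read in the mouse heart. They are the protein-coding rows of the deposited count table whose GENCODE mouse symbol is Wnt, Fzd, Sfrp or Dkk followed by a digit. The rule used gene names alone and found 37 members of 21974 protein-coding genes: 19 Wnt ligands, 10 Frizzled receptors, 4 secreted Frizzled-related proteins (Sfrp) and 4 Dickkopf proteins (Dkk).

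Wnts are lipid-modified secreted proteins that bind Frizzled receptors on nearby cells. With the coreceptors Lrp5 and Lrp6, some Wnts stabilise β-catenin and so switch on target genes such as Axin2; others, such as Wnt5a and Wnt11, mainly act through Frizzled without β-catenin. Sfrp proteins resemble the Wnt-binding part of a Frizzled and bind Wnts outside the cell, whereas Dickkopf proteins such as Dkk1 bind Lrp5 and Lrp6. The pathway is largely quiet in the healthy adult heart and is known from its reactivation after injury and in fibrosis.

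The libraries came from polyadenylated RNA of 30 mouse hearts, frozen 8 weeks after surgery. The surgery was transverse aortic constriction (TAC), in which a clip narrows the aorta and raises the load on the heart, or a sham operation. One cohort held mice with floxed Cpt1a and no knockout (FF_sham and FF_TAC, 4 hearts each) and mice with a cardiac-specific knockout of Cpt1a (KO_sham and KO_TAC, 4 each), which the series' design text calls a knockdown. Cpt1a encodes carnitine palmitoyltransferase 1a, which admits long-chain fatty acids into mitochondria. The labels name neither the Cre driver nor the strain of the floxed mice. The other cohort held C57Bl/6 mice given PBS (PBS_sham and PBS_TAC, 3 each) or an AAV9 vector that delivers Cpt1a to heart muscle (AAV_sham and AAV_TAC, 4 each), with cTNTN, read here as the cardiac troponin T promoter, in its name. The tissue is labelled as heart with no chamber named, no ages are given, and clips of 0.016 or 0.018 inch were used without a record of which mouse had which. Nothing in the labels says more about how replicates were raised, so each p-value measures the spread between these hearts.

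Total counts ran from 14839758 to 22070373 per library. Levels are given as CPM, a gene's count per fixed library total after scaling between libraries. Calls were made with edgeR's quasi-likelihood test where the p adjusted by Benjamini and Hochberg's method over a cohort's genes was under 0.05; adjusted p-values are edgeR's unless another tool is named. Cpt1a itself was lower in KO_TAC than in KO_sham (log2 fold change −0.99, adjusted p 0.0383) and FF_TAC (−1.07, adjusted p 0.0405). Each call was lost in 5 of 8 fits without 1 library: those without KO_TAC 2, 3 or 4 in both, KO_sham 2 or 4 in the former (−1.07 to −0.65, adjusted p 0.0548 to 0.135) and FF_TAC 1 or 4 in the latter (−1.07 to −0.73, adjusted p 0.0788 to 0.147). FF_TAC 1 to 4 held 50.3, 20.7, 16.5 and 34.9 CPM of Cpt1a. KO_TAC 1 to 4 held 19.9, 11.3, 14.3 and 11.3 CPM, so that FF_TAC 3 lay within KO_TAC. The library labelled KO_sham 2 held 46.7 CPM, within the 38.7 to 53.7 CPM of FF_sham, and Cpt1a was not called in KO_sham against FF_sham (−0.68, adjusted p 0.95). Nor was it called with the vector: the difference from PBS was 0.45 after sham surgery (69.9 against 49.7 CPM, adjusted p 0.248) and 0.05 after TAC (53.9 against 52.2 CPM, adjusted p 1), and the libraries overlapped in both. Haemoglobin transcripts summed to 1.40 to 51.1 CPM in 7 libraries (FF_TAC 2 and 3, KO_sham 2 and all of KO_TAC) and to at least 293.9 CPM in the other 23. The share of counts from mitochondrial genes set KO_TAC apart as well, at 12.1 to 18.7% against 19.3 to 25.99% in the 26 other libraries, and every member called rests on KO_TAC; the part of either in the calls was not tested beyond the fits with haemoglobin. Atrial muscle transcripts split the libraries as well: Myl7, the atrial myosin light chain, exceeded 10 CPM in 14 libraries spread over all 8 groups and was at most 0.717 CPM in 16. PBS_sham 3 stood apart with a scaling factor of 1.53 and the highest smooth muscle markers, which summed to 1632 CPM. Heart muscle markers were abundant throughout but uneven in PBS_sham. There 6 of them summed to 19179 to 51401 CPM, against at least 35805 CPM in every library of the other groups.

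Of the 37 members, 24 were high enough to be tested in at least 1 cohort, 21 of them among the floxed and knockout hearts and 24 in the AAV9 cohort. The 3 tested only in the AAV9 cohort were Wnt2, Wnt4 and Dkk2. The other 13 were too low to measure. Wnt3, Wnt3a, Wnt7a, Wnt8a, Wnt8b, Wnt10a, Dkk1 and Dkk4 held 3 counts or fewer in every library, and Wnt8a held none. Wnt1, Wnt7b, Wnt16, Fzd10 and Sfrp4 passed 3 counts in some libraries, from 3 libraries for Wnt7b and Fzd10 to 18 for Sfrp4. At this depth a level of 3 counts or fewer does not show that a gene is silent.

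Sfrp1, Sfrp2, Fzd1 and Fzd4 were called in both comparisons that turned on overloaded knockout hearts. The 250 bases upstream of the RefSeq start of Sfrp2, Fzd1 and Fzd4 are shown (RefSeq, GRCm38.p6). They were read for 3 motifs on both strands: CTTTGA, the core bound by TCF and LEF factors at β-catenin targets; TGANTCA, the AP-1 site; and GGGCGG, the GC box. Capitals mark every match. The table used holds 25 of the 37 members.
Sfrp2, chr3:83766071-83766320, plus strand: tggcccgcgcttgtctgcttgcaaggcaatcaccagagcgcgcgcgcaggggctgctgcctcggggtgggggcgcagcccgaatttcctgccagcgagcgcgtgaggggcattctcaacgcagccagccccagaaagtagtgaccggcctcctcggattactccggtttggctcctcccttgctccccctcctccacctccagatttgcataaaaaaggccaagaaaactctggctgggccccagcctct
Fzd1, chr5:4758217-4758466, minus strand: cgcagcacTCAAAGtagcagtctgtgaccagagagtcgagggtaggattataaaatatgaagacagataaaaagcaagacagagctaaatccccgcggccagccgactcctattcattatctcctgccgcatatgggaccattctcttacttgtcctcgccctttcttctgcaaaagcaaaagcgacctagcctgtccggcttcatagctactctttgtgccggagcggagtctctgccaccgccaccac
Fzd4, chr7:89404116-89404365, plus strand: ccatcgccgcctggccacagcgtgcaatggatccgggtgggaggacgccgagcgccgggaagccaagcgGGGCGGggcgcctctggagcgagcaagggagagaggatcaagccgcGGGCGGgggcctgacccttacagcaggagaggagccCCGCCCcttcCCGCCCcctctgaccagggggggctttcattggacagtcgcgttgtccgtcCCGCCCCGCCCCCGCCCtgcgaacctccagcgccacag
The Fzd1 stretch holds 1 TCF/LEF core, read on the opposite strand and beginning 242 bases before the start. The Fzd4 stretch holds 7 GC boxes and has a GC content of 72.8%. No match of the 3 motifs lies in the Sfrp2 stretch, whose GC content is 63.6%, nor an AP-1 site in any of the 3. Among the 32851 RefSeq promoter entries, the same 250-base window holds a TCF/LEF core in 13.8%, an AP-1 site in 6.75% and a GC box in 32.7%. These matches describe letters only.

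Per kilobase of exon, Dkk3 was the most abundant member over the 30 libraries (mean 21.7 CPM per kb), ahead of Fzd4 (7.51), Sfrp1 (5.17) and Fzd6 (4.61). Sfrp5 (2.80), Fzd1 (2.36), Fzd7 (2.16) and Sfrp2 (2.15) followed. No ligand reached these levels: Wnt9a had the highest mean (1.95 CPM per kb), then Wnt5b (1.65), Wnt11 (1.43) and Wnt5a (1.15). The mean of Dkk3 rests on a few libraries, since its median was 15.1 CPM against a mean of 73.0 CPM and its libraries ran from 1.36 to 509.8 CPM. Fzd4 and Fzd6 spread far less, from 22.1 to 74.8 CPM and from 13.2 to 28.6 CPM.

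**Figure D1:**
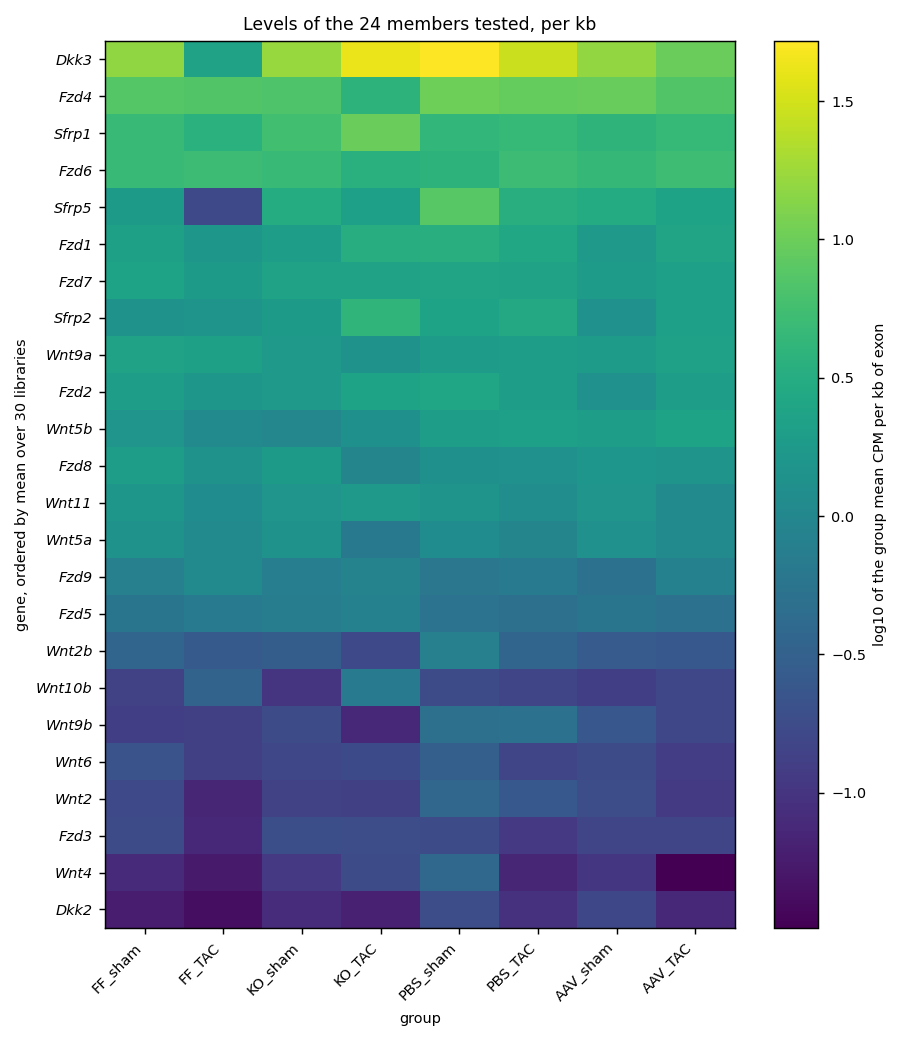
Group means of the 24 members tested, as log10 of CPM per kb of exon (colour), with genes in rows ordered by their mean over 30 libraries and the 8 groups in columns. Dkk3 (mean 21.7 CPM per kb), Fzd4 (7.51) and Sfrp1 (5.17) head the order, and Dkk3 and Sfrp5 vary most between groups.

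In the knockout hearts under pressure overload, the secreted Wnt-binding proteins Sfrp1 and Sfrp2 and the receptor Fzd1 rose and the receptor Fzd4 fell. These changes were called both against sham-operated knockouts and against floxed controls with TAC, comparisons that share the 4 KO_TAC libraries. Against KO_sham, Wnt10b also rose and Wnt5a and Fzd8 also fell. Against FF_TAC, Fzd3 was also higher and Fzd6 and Wnt9a lower. With a term for the haemoglobin-low libraries in the model, no member was called against KO_sham. Against FF_TAC only Sfrp1, Sfrp2 and Fzd1 were called with that term.

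Pressure overload in the knockout (KO_TAC against KO_sham) moved 7 of the 21 members tested (33.3%), 4 higher and 3 lower. Of all genes tested, 25.8% were called, 14.3% as higher and 11.5% as lower, so that the family's share was near that of the whole transcriptome. The median log2 change was 0.19 over the members and 0.02 over all genes. DESeq2 called 7 members beside 30.9% of all genes, and voom with sample weights 10 beside 53.4%. The count of members was 2 without KO_sham 3 or KO_TAC 3, 4 without KO_sham 2 or KO_sham 4, and 8 without KO_TAC 1. The count over all genes moved too, from 4031 to 1956 without KO_TAC 3 and to 6441 without KO_TAC 1. Those were the lowest and highest of the 8 fits. A term for the 7 haemoglobin-low libraries in the model left 0 members called in this comparison (5 at an unadjusted p under 0.05) and 1.75% of all genes.

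The knockout effect under overload (KO_TAC against FF_TAC) also covered 7 of 21 members (33.3%), 4 higher and 3 lower, where 14.3% of all genes were called, 7.53% as higher and 6.80% as lower. The median log2 difference was 0.37 over the members and 0.04 over all genes. DESeq2 called 9 members beside 19.6% of all genes, and voom 10 beside 38.5%. With the haemoglobin term 3 members were called (7.23% of all genes), namely Sfrp1, Sfrp2 and Fzd1. Among the haemoglobin-low libraries alone (4 against 2) none was called by edgeR, with 6 members at an unadjusted p under 0.05 and 0% of all genes called. A fit of KO_TAC and FF_TAC alone called 3 members, as against 7 with all 4 groups sharing the estimate of spread. The share of all genes called in that fit is not given here. The part of whatever sets the haemoglobin-low libraries apart was not tested: KO_TAC has no library above the limit.

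Among the ligands, Wnt10b (ENSMUSG00000022996, chromosome 15, 98770712 to 98778150, minus strand, GRCm38, as all positions given) was under 1 CPM in every library outside KO_TAC but 1. It stood at 2.15, 1.22, 3.04 and 2.60 CPM in KO_TAC 1 to 4 and at 0.332, 0.368, 0.216 and 0.432 CPM in KO_sham. FF_TAC held 0.507, 0.919, 2.997 and 0.170 CPM, FF_sham 0.280 to 0.820 CPM, and the 14 libraries of the AAV9 cohort 0.113 to 0.996 CPM. The KO_TAC and KO_sham libraries did not overlap, whereas FF_TAC 3 reached the level of KO_TAC. Wnt10b, a ligand of the β-catenin branch, rose by 2.75 ± 0.64 (log2, SE) after TAC in the knockout (adjusted p 0.00865), a call that held in each of the 8 fits without 1 library. With the haemoglobin term the change was 1.48 (adjusted p 0.27). KO_TAC against FF_TAC gave 1.01 ± 0.57 (adjusted p 0.245), and from 0.64 without FF_TAC 4 (adjusted p 0.475) to 2.101 without FF_TAC 3 (adjusted p 0.0135); TAC in floxed controls gave 1.28 ± 0.64 (adjusted p 0.471) and 0.17 without FF_TAC 3.

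Wnt5a (ENSMUSG00000021994, chromosome 14, 28504750 to 28527448, plus strand), a ligand known for signalling without β-catenin, stood at 9.53, 2.44, 3.15 and 5.21 CPM in KO_TAC and at 10.7, 9.50, 12.5 and 11.8 CPM in KO_sham. FF_TAC held 13.0, 7.72, 6.80 and 6.93 CPM, FF_sham 8.01, 12.9, 10.7 and 12.0 CPM, and the AAV9 cohort 5.40 to 13.4 CPM. KO_TAC 2, 3 and 4 lay below every other library of the study, and KO_TAC 1 overlapped KO_sham. After TAC in the knockout Wnt5a fell by 1.09 ± 0.33 (log2, SE; adjusted p 0.0264). The call was lost in 4 of 8 fits (without KO_sham 3, KO_sham 4, KO_TAC 2 or KO_TAC 3, from −1.07 to −0.88, adjusted p 0.0586 to 0.0858), with the haemoglobin term (−0.81, adjusted p 0.276) and in a fit of the 2 groups alone (−1.10, adjusted p 0.0699). Against FF_TAC the difference was −0.72 ± 0.33 (adjusted p 0.149), and ran from −0.46 without FF_TAC 1 (adjusted p 0.405) to −1.23 without KO_TAC 1 (adjusted p 0.00661). Exons of Wnt5a share 358 bases with those of Gm2670 on the other strand, a gene with at most 5 counts in a library.

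Wnt9a (ENSMUSG00000000126, chromosome 11, 59306928 to 59333552, plus strand) had lower values in knockout than in floxed hearts with either surgery, called under TAC. It stood at 5.24, 4.45, 3.88 and 5.15 CPM in KO_TAC, 8.29, 6.56, 6.49 and 7.49 CPM in FF_TAC, 5.59, 5.03, 5.55 and 6.64 CPM in KO_sham, and 8.32, 7.22, 7.599 and 7.25 CPM in FF_sham. In neither contrast did knockout and floxed libraries overlap; the AAV9 cohort ran from 4.39 to 8.03 CPM. Under TAC the difference of −0.59 ± 0.14 (log2, SE) was called (adjusted p 0.0109), also in each of the 8 fits without 1 library. It was −0.47 with the haemoglobin term (adjusted p 0.0656) and −0.60 with the 2 groups fitted alone (adjusted p 0.0957), and thus not called in either. After sham surgery the difference was −0.42 ± 0.14, with an unadjusted p of 0.0073 and an adjusted p of 0.9. TAC within the knockout gave −0.25 ± 0.14 (adjusted p 0.188).

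The other 5 ligands tested in the floxed cohort (Wnt2b, Wnt5b, Wnt6, Wnt9b and Wnt11) were called in none of its comparisons. Wnt11, at 3.19 to 9.03 CPM over the 30 libraries, was the only one of them at more than 3 CPM in every library.

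**Figure D2:**
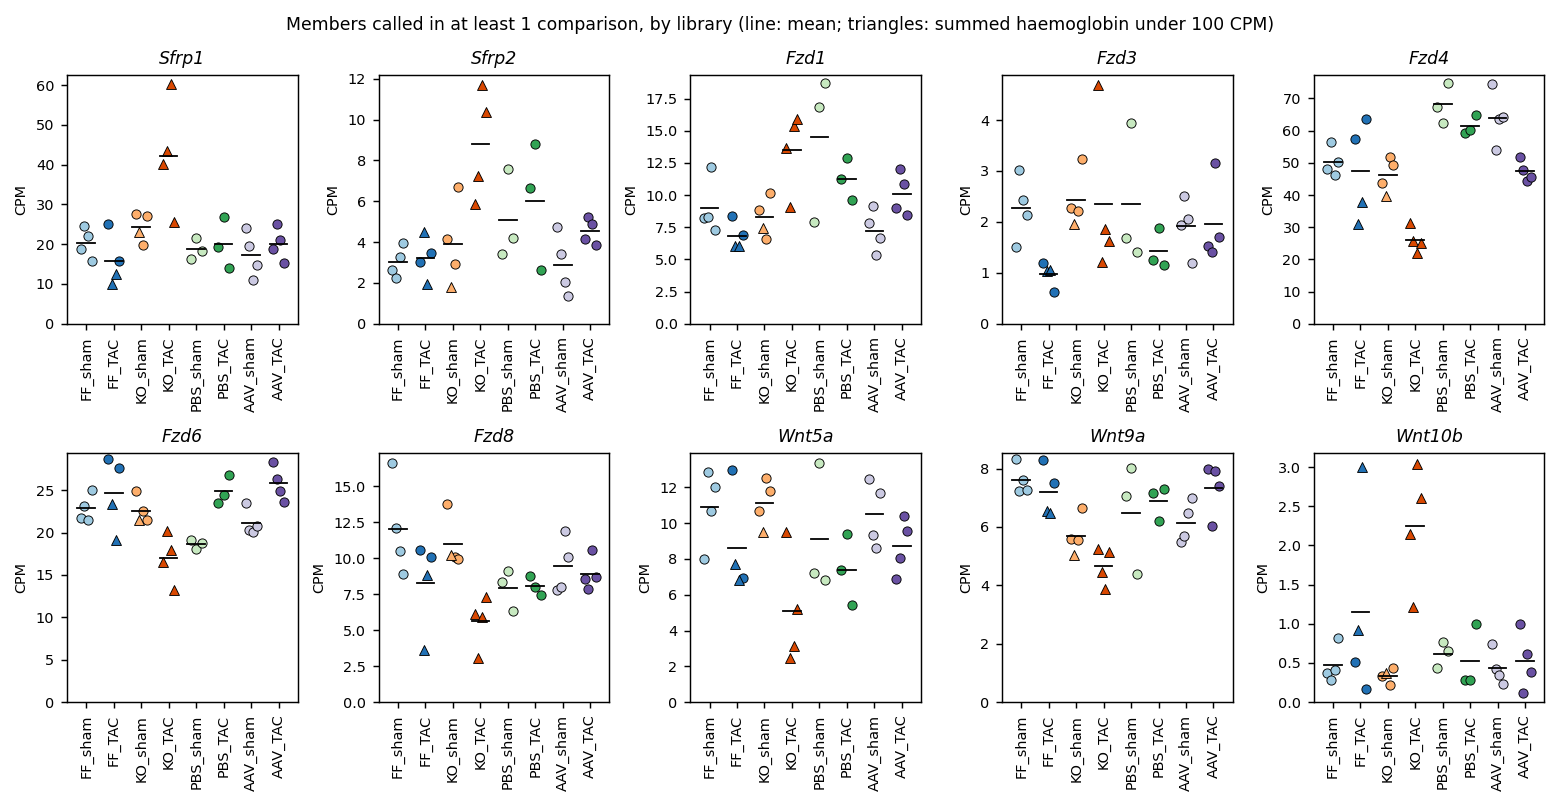
CPM of the 10 members called in at least 1 comparison, 1 point for each of 30 libraries in 8 groups, with a line at each group's mean and triangles for the 7 libraries with summed haemoglobin under 100 CPM. Sfrp1 in KO_TAC lies at 25.5 to 60.2 CPM and Fzd4 at 22.1 to 31.4 CPM, apart from most other libraries.

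Among the receptors, Fzd4 (ENSMUSG00000049791, chromosome 7, 89404355 to 89413134, plus strand), the most abundant Frizzled per kilobase and known from its part in blood vessel growth, was lowest in KO_TAC. Its libraries held 31.4, 25.8, 22.1 and 24.9 CPM there, 43.7, 39.5, 51.8 and 49.5 CPM in KO_sham, 57.3, 31.1, 37.8 and 63.6 CPM in FF_TAC, and 48.0, 56.5, 46.2 and 50.2 CPM in FF_sham. KO_TAC did not overlap KO_sham, and it overlapped FF_TAC through FF_TAC 2, 1 of the 2 haemoglobin-low libraries of that group. The log2 change was −0.78 ± 0.19 (SE) against KO_sham (adjusted p 0.00958) and −0.83 ± 0.19 against FF_TAC (adjusted p 0.00919), called in each of the 8 fits without 1 library. With the haemoglobin term the values were −0.36 (adjusted p 0.23) and −0.50 (adjusted p 0.0559), neither called, and the 2 TAC groups fitted alone gave −0.84 (adjusted p 0.081). In floxed controls TAC gave −0.08 ± 0.18 (adjusted p 0.869).

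Fzd1 (ENSMUSG00000044674, chromosome 5, 4753839 to 4758035, minus strand), a receptor for several Wnts, stood at 13.6, 9.11, 15.4 and 15.9 CPM in KO_TAC and at 8.86, 7.48, 6.58 and 10.2 CPM in KO_sham. FF_TAC held 8.34, 6.07, 6.06 and 6.93 CPM and FF_sham 8.19, 8.29, 12.2 and 7.25 CPM. All 4 KO_TAC libraries lay above FF_TAC, and KO_TAC 2 lay within KO_sham. Fzd1 was 1.01 ± 0.20 higher (log2, SE) than in FF_TAC (adjusted p 0.00466), and 1.14 higher with the haemoglobin term (adjusted p 0.0103); the call held in each of the 8 fits without 1 library. Against KO_sham it rose by 0.74 ± 0.20 (adjusted p 0.0158), which missed the threshold without KO_sham 3 (0.63, adjusted p 0.0544), without KO_TAC 3 (0.67, adjusted p 0.0556) and with the haemoglobin term (0.93, adjusted p 0.073). TAC in floxed controls gave −0.39 ± 0.20 (adjusted p 0.48).

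Fzd8 (ENSMUSG00000036904), another Wnt receptor, stood at 6.14, 3.08, 5.90 and 7.26 CPM in KO_TAC and at 13.7, 10.2, 10.08 and 9.93 CPM in KO_sham, with no overlap. FF_TAC held 10.6, 3.62, 8.80 and 10.0 CPM, and FF_sham 16.6, 12.1, 10.5 and 8.89 CPM. Fzd8 fell by 0.94 ± 0.30 (log2, SE) after TAC in the knockout (adjusted p 0.0334). That call was lost in 6 of 8 fits (without any 1 KO_sham library, KO_TAC 2 or KO_TAC 3; from −0.995 to −0.761, adjusted p 0.0515 to 0.0908) and with the haemoglobin term (−0.61, adjusted p 0.345). Against FF_TAC the difference was −0.53 ± 0.30 (adjusted p 0.243), and ran from −0.35 without KO_TAC 2 (adjusted p 0.473) to −0.79 without FF_TAC 2 (adjusted p 0.0405).

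Fzd6 (ENSMUSG00000022297, chromosome 15, 39006034 to 39038188, plus strand), a receptor known from planar cell polarity, stood at 16.5, 20.2, 18.0 and 13.2 CPM in KO_TAC, 28.6, 23.4, 19.1 and 27.6 CPM in FF_TAC, 24.9, 21.5, 22.6 and 21.4 CPM in KO_sham and 21.7, 23.1, 21.5 and 25.0 CPM in FF_sham. KO_TAC lay below KO_sham throughout and overlapped FF_TAC through FF_TAC 3. Fzd6 was −0.50 ± 0.14 (log2, SE) against FF_TAC (adjusted p 0.0304), a call lost in 4 of 8 fits (without FF_TAC 1, FF_TAC 4, KO_TAC 3 or KO_TAC 4; −0.53 to −0.40, adjusted p 0.0587 to 0.0958). It was −0.37 with the haemoglobin term (adjusted p 0.158) and −0.52 with the 2 groups alone (adjusted p 0.148). Against KO_sham the change was −0.37 ± 0.14 (adjusted p 0.0673), and −0.49 without KO_TAC 2 (adjusted p 0.0291). Exons of Fzd6 share 152 bases with Gm26704 on the other strand, which held at most 15 counts.

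Fzd3 (ENSMUSG00000007989, chromosome 14, 65192449 to 65262463, minus strand) was the lowest of the called receptors per kilobase. It stood at 4.69, 1.22, 1.86 and 1.63 CPM in KO_TAC and at 1.18, 1.04, 1.06 and 0.624 CPM in FF_TAC. KO_sham held 2.27, 1.96, 2.21 and 3.24 CPM and FF_sham 1.501, 3.02, 2.44 and 2.14 CPM, so that FF_TAC was the low group and KO_TAC overlapped both sham groups. The difference from FF_TAC was 1.30 ± 0.38 (log2, SE; adjusted p 0.0342). It was lost in 5 of 8 fits (without FF_TAC 1, 3 or 4, or KO_TAC 1 or 3; adjusted p 0.0517 to 0.116), was 0.71 without KO_TAC 1, and was not called with the haemoglobin term (1.32, adjusted p 0.0884), with no filter on low counts (1.28, adjusted p 0.0525) or with the 2 groups alone (1.29, adjusted p 0.145). The other receptors tested, Fzd2, Fzd5, Fzd7 and Fzd9, were called in no comparison by edgeR.

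Of the secreted Wnt-binding proteins, Sfrp1 (ENSMUSG00000031548, chromosome 8, 23411502 to 23449632, plus strand) had its highest group mean in KO_TAC, which held 40.1, 43.3, 60.2 and 25.5 CPM. KO_sham held 27.5, 23.1, 19.8 and 27.1 CPM, FF_TAC 25.1, 10.1, 12.4 and 15.7 CPM, and FF_sham 18.8, 24.5, 22.2 and 15.9 CPM. The AAV9 cohort ran from 11.1 to 26.7 CPM, and its highest library, PBS_TAC 2, lay above KO_TAC 4. KO_TAC lay above FF_TAC throughout, though KO_TAC 4 and FF_TAC 1 nearly met, and KO_TAC 4 lay within KO_sham. Sfrp1 exceeded FF_TAC by 1.45 ± 0.27 (log2, SE; adjusted p 0.00348), by 1.24 to 1.75 in the 8 fits without 1 library, each called, and by 1.75 with the haemoglobin term (adjusted p 0.00554). The haemoglobin-low libraries alone gave 1.91 ± 0.35 (adjusted p 0.19). After TAC in the knockout Sfrp1 rose by 0.84 ± 0.27 (adjusted p 0.0339). That call was lost in 6 of 8 fits (without any 1 KO_sham library, KO_TAC 2 or KO_TAC 3; 0.62 to 0.89, adjusted p 0.0531 to 0.13) and with the haemoglobin term (1.197, adjusted p 0.0645). TAC in floxed controls gave −0.36 ± 0.27 (adjusted p 0.613), and the knockout after sham surgery 0.26 ± 0.27 (adjusted p 1).

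Sfrp2 (ENSMUSG00000027996, chromosome 3, 83766321 to 83774316, plus strand), which is secreted by fibroblasts, also had its highest group mean in KO_TAC, at a lower level. KO_TAC held 5.89, 7.24, 11.7 and 10.4 CPM, KO_sham 4.17, 1.78, 2.91 and 6.69 CPM, FF_TAC 3.04, 4.47, 1.94 and 3.46 CPM and FF_sham 2.63, 2.24, 3.25 and 3.97 CPM. The AAV9 cohort ran from 1.36 to 8.82 CPM. There PBS_TAC 2 (8.82 CPM) and PBS_sham 2 (7.60 CPM) lay above KO_TAC 1 and KO_TAC 2. Each KO_TAC library lay above FF_TAC, and KO_TAC 1 lay below the highest KO_sham library. Sfrp2 exceeded FF_TAC by 1.47 ± 0.36 (log2, SE; adjusted p 0.0134), called in each of the 8 fits, and by 1.72 with the haemoglobin term (adjusted p 0.0195). In the haemoglobin-low libraries alone the difference was 1.45 ± 0.43 (adjusted p 0.316). After TAC in the knockout Sfrp2 rose by 1.21 ± 0.35 (adjusted p 0.0224). That call was lost without KO_sham 2, KO_sham 3 or KO_TAC 3 (0.97 to 1.08, adjusted p 0.0532 to 0.0776), with the 2 groups alone (1.20, adjusted p 0.0626) and with the haemoglobin term (1.65, adjusted p 0.091). TAC in floxed controls gave 0.10 ± 0.36 (adjusted p 0.925). Exons of Sfrp2 share 347 bases with Gm26771 on the other strand, which held at most 2 counts.

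**Figure D3:**
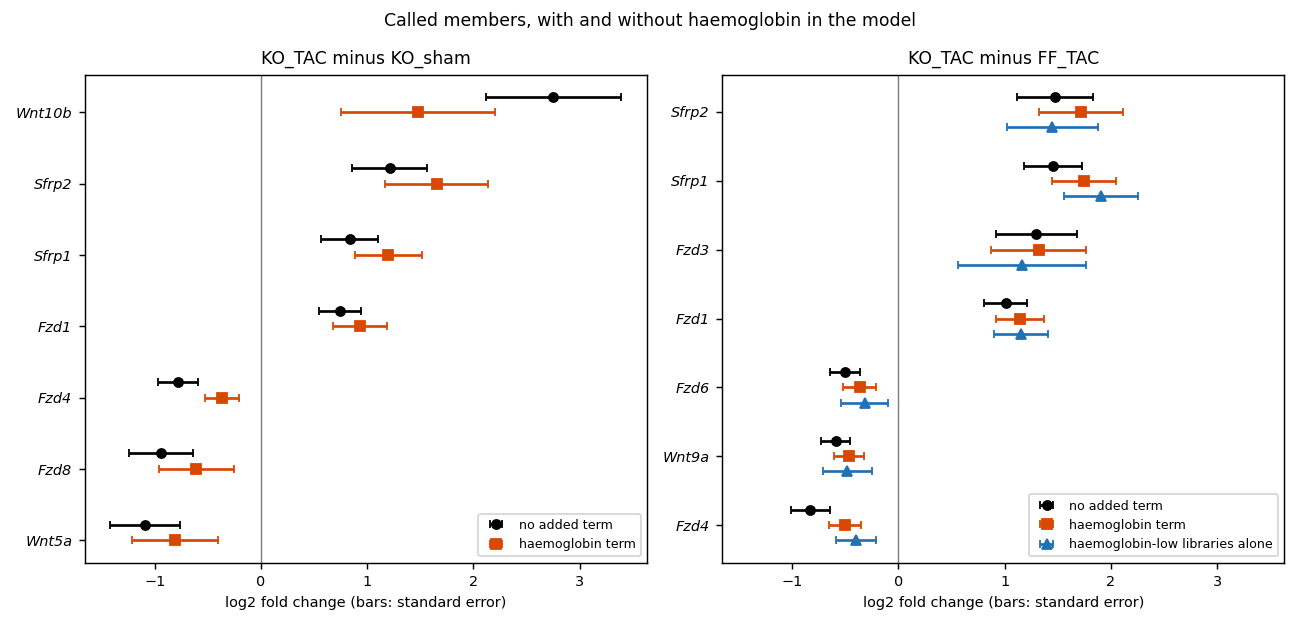
Log2 fold changes (x axis, bars are standard errors) of the 7 members called in KO_TAC against KO_sham (left) and the 7 called in KO_TAC against FF_TAC (right), with no added term, with a term for the haemoglobin-low libraries and, on the right, in the haemoglobin-low libraries alone. Sfrp1 and Sfrp2 lie between 0.84 and 1.91 in each setting, while Fzd4 moves from −0.83 to −0.40 on the right.

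Whether the knockout changed the response to TAC was tested as an interaction, the TAC effect in knockouts minus that in floxed controls. No member was called by edgeR (7 of 21 at an unadjusted p under 0.05; 0.0449% of all genes called). The values were 1.13 ± 0.28 for Fzd1 (log2, SE; adjusted p 0.115), 1.20 ± 0.38 for Sfrp1 (adjusted p 0.198), 1.11 ± 0.50 for Sfrp2 (adjusted p 0.36) and −0.70 ± 0.26 for Fzd4 (adjusted p 0.267). DESeq2 called 1 member, Fzd1 (adjusted p 0.0137; 2.42% of all genes), and voom with sample weights called 6 (18.8% of all genes). A TAC effect called in the knockout and not in floxed controls is therefore not shown by edgeR to differ between them.

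Cell type markers moved beside these members, and their part in the changes was not tested. In bulk tissue, fewer cells of a type and less RNA per cell cannot be told apart. Of 5 endothelial markers, Cdh5, Kdr and Tie1 were lower in KO_TAC both against KO_sham and against FF_TAC; their list summed to 440.7 to 634.6 CPM in KO_TAC, 625 to 825 in KO_sham and 670.4 to 903 in FF_TAC. Of 5 activated fibroblast markers, Cilp, Comp and Postn were higher in both and Cthrc1 against FF_TAC as well; the list summed to 278 to 1123 CPM in KO_TAC, 67.2 to 135 in KO_sham and 76.8 to 226 in FF_TAC. Of 6 fibroblast markers, Col1a1 and Dcn were higher in both comparisons, and Dpt against FF_TAC; the list summed to 1391 to 1562 CPM in KO_TAC, 781 to 1071 in KO_sham and 809.7 to 950.4 in FF_TAC. Of 3 valve and chondrocyte-like markers, Comp (also in the activated fibroblast list) and Sox9 were higher in both comparisons; the list summed to 57.2 to 319 CPM in KO_TAC, 6.06 to 25.3 in KO_sham and 8.68 to 11.4 in FF_TAC, without overlap. Of 5 macrophage markers, C1qa and Cd68 were higher than in FF_TAC and none was called against KO_sham; the list summed to 177 to 208 CPM in KO_TAC, 123 to 138 in FF_TAC and 152 to 265 in KO_sham. No defining marker of these 5 lists was at 0 in the groups of the floxed cohort. Sums of fibroblast and activated fibroblast markers thus did not overlap between KO_TAC and either group, and endothelial sums overlapped those of KO_sham and lay below those of FF_TAC. Heart muscle markers moved as well. Of 6, Actn2, Myh6, Pln and Ryr2 were called against KO_sham, 3 lower and 1 higher, and Myh6 and Pln were lower than in FF_TAC. Their sums overlapped, at 35805 to 47929 CPM in KO_TAC, 42799 to 49247 in KO_sham and 42863 to 48352 in FF_TAC.

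Dkk3 (ENSMUSG00000030772, chromosome 7, 112116017 to 112159057, minus strand) varied most between libraries among the members above. This secreted glycoprotein of the Dickkopf family is weakly, if at all, active at Lrp5 and Lrp6. It held 2.25, 180.3, 15.0 and 7.38 CPM in FF_sham, 18.2, 3.92, 5.18 and 3.69 CPM in FF_TAC, 3.36, 109, 2.96 and 112 CPM in KO_sham and 509.8, 19.7, 24.9 and 15.3 CPM in KO_TAC. In the AAV9 cohort it held 46.4, 384 and 96.1 CPM in PBS_sham, 7.61, 276 and 5.82 CPM in PBS_TAC, 73.5, 134, 3.21 and 1.36 CPM in AAV_sham and 7.83, 8.39, 107 and 4.84 CPM in AAV_TAC. Single libraries of a group differed by more than most groups did from each other.

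The high libraries were those with atrial transcripts. In the 14 libraries with Myl7 above 10 CPM, Dkk3 ran from 3.21 to 509.8 CPM with a median of 108; in the other 16 it ran from 1.36 to 24.9 CPM with a median of 5.50. The labels do not say which chambers were sampled, and the part of atrial tissue in the level of Dkk3 was not tested further than this split and a covariate. Among the 16 libraries low in Myl7, the 3 highest were KO_TAC 2, 3 and 4, at 15.3 to 24.9 CPM.

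Dkk3 was called in none of the 10 comparisons by edgeR. It gave 4.22 ± 1.62 (log2, SE) in KO_TAC against FF_TAC (adjusted p 0.0925; DESeq2 adjusted p 0.0188), and 1.39 without KO_TAC 1. After TAC in the knockout it gave 1.34 ± 1.43 (adjusted p 0.5), and −1.48 without KO_TAC 1. With log2 Myl7 as a covariate the standard errors fell to 0.42 and 0.41, and Dkk3 was called as higher in KO_TAC against FF_TAC (2.06, adjusted p 0.00498) and against KO_sham (1.84, adjusted p 0.00696). That model called 9 members in each of the 2 comparisons, beside 20% and 28.2% of all genes.

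**Figure D4:**
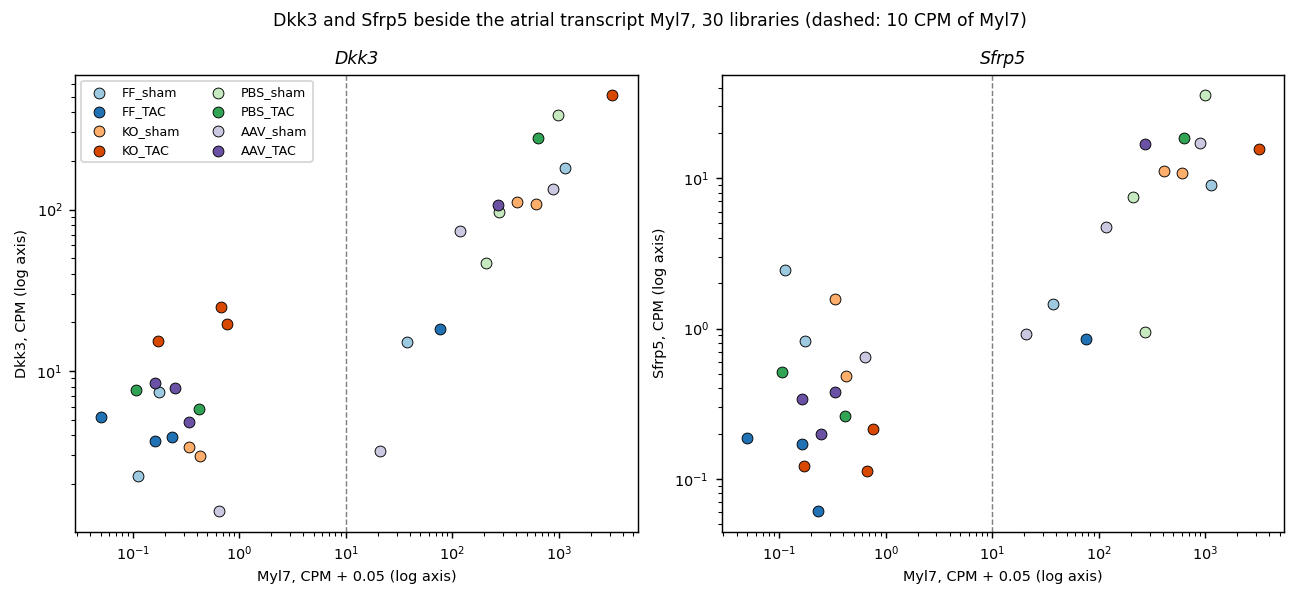
Dkk3 (left) and Sfrp5 (right) in CPM on a log axis against Myl7 in CPM plus 0.05 on a log axis, 1 point per library for 30 libraries coloured by group, with a dashed line at 10 CPM of Myl7. Median Dkk3 is 108 CPM in the 14 libraries right of the line and 5.50 CPM in the 16 left of it, and KO_TAC 2, 3 and 4 head the latter.

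Sfrp5 (ENSMUSG00000018822, chromosome 19, 42197971 to 42202252, minus strand), another Wnt-binding Sfrp, followed the same split and is named for that reason after its values were seen. It ran from 0.845 to 35.6 CPM (median 9.87) in the libraries with Myl7 above 10 CPM and from 0.0613 to 2.44 CPM (median 0.300) in the others. KO_TAC held 15.6, 0.215, 0.112 and 0.121 CPM, so that KO_TAC 1 alone was high, as it was for Myl7 (3188 CPM). KO_TAC against FF_TAC gave 3.66 ± 1.56 (log2, SE; adjusted p 0.125) and −1.08 without KO_TAC 1. Unlike Dkk3, it was no higher in KO_TAC 2, 3 and 4 than in other libraries low in Myl7.

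In floxed controls with TAC no member was called (0% of all genes called by edgeR; 2 of 21 members at an unadjusted p under 0.05; 0 members by DESeq2, which called 1.12% of all genes, and 0 by voom). Fzd3, at 0.978 ± 0.244 CPM in FF_TAC and 2.28 ± 0.633 CPM in FF_sham (SD, n = 4 each), did not overlap between the groups, with a log2 change of −1.21 ± 0.38 (SE) and an adjusted p of 0.344 by edgeR. For the knockout after sham surgery none was called either (0% of all genes; 1 of 21 at an unadjusted p under 0.05; 0 by DESeq2 and by voom).

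In the AAV9 cohort no member was called by edgeR. The background shares were 0.0318% for TAC in PBS mice (0.0127% higher and 0.0191% lower), 0.00635% for TAC in AAV9.Cpt1a mice, 0.0127% and 0.0381% for the vector after sham surgery and TAC, and 0.00635% for the interaction. Members at an unadjusted p under 0.05 numbered 3, 3, 4, 1 and 2 of 24 in that order. DESeq2 called 0, 1, 3, 0 and 0 (2.35%, 0.743%, 2.45%, 0.235% and 0.102% of all genes), and voom 1, 1, 1, 0 and 0 (1.6%, 2.33%, 0.445%, 0.616% and 0.0826%).

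Of the values in this cohort, those of Fzd6, Wnt2b and Wnt4 were chosen after they were seen. After TAC in AAV9.Cpt1a mice Fzd4 stood at 52.0, 47.8, 44.2 and 45.6 CPM in AAV_TAC and at 74.4, 54.0, 63.5 and 64.3 CPM in AAV_sham, without overlap. Its log2 change was −0.44 ± 0.12 (SE; adjusted p 0.257 by edgeR, 0.037 by DESeq2 and 0.0138 by voom). PBS_TAC held 59.2, 60.3 and 64.9 CPM. Endothelial markers summed to 859.9 to 900.0 CPM in AAV_TAC and to 733 to 836 CPM in AAV_sham; their part in the values of Fzd4 was not tested. Fzd6, by contrast, lay higher after TAC with PBS and with the vector, not called in either. In PBS mice it held 23.5, 24.5 and 26.7 CPM against 19.2, 18.1 and 18.8 CPM (0.38 ± 0.11, adjusted p 0.15). In AAV9.Cpt1a mice its mean was 25.8 against 21.2 CPM, also without overlap (0.28 ± 0.09, adjusted p 0.442).

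In sham-operated mice, Fzd1 stood at 7.80, 9.16, 5.32 and 6.63 CPM with the vector and at 7.93, 16.9 and 18.7 CPM with PBS. The difference was −1.05 ± 0.27 (log2, SE; adjusted p 0.131 by edgeR and 0.0251 by DESeq2), and ran from −0.77 without PBS_sham 3 (adjusted p 0.307) to −1.34 without PBS_sham 1 (adjusted p 0.00534). Wnt2b, a ligand of the β-catenin branch, held 1.34, 1.14, 1.15 and 0.947 CPM with the vector and 1.57, 4.92 and 3.59 CPM with PBS (−1.58 ± 0.36, adjusted p 0.131; −1.92 and 0.00534 without PBS_sham 1; −1.24 and 0.0874 without PBS_sham 2). Wnt4 gave −1.91 ± 0.75 (adjusted p 0.196) and −2.29 without PBS_sham 1 (adjusted p 0.0489). Without PBS_sham 1, 5 members were called in this comparison, beside 2821 genes overall. In PBS_TAC against PBS_sham the same omission left 3 members called, beside 1796 genes overall. Wnt4 gave −2.86 there (adjusted p 0.0479), as against −2.47 ± 0.86 (adjusted p 0.191) with PBS_sham 1. PBS_TAC held 1, 15 and 0 counts of Wnt4, so that its value there rests on libraries at or under the floor of 3 counts and on PBS_TAC 2, and ran from −5.63 without PBS_TAC 2 to −1.87 without PBS_TAC 3. The high values lay in PBS_sham 2 and PBS_sham 3. All 3 PBS_sham libraries had Myl7 above 10 CPM, as did 3 of 4 in AAV_sham and, in PBS_TAC, PBS_TAC 2 alone. Median Wnt4 was 0.574 CPM in the 14 libraries above that limit and 0.122 CPM in the other 16. The part of atrial tissue in these values was not tested further than this split and a covariate. Markers of epicardium and mesothelium summed to 11.9 to 292 CPM in PBS_sham and to 12.8 to 44.0 CPM in AAV_sham, and smooth muscle markers to 169 to 1632 CPM and 96.4 to 147 CPM. Heart muscle markers summed to 19179 to 51401 CPM in PBS_sham and to 49553 to 53851 CPM in AAV_sham. The part of these markers in the differences was not tested.

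A further 48 genes of the pathway that carry other names were followed, of which 37 were tested beside the floxed controls and 38 in the AAV9 cohort. Under TAC in the knockout 3 of 37 were called, all higher, and in KO_TAC against FF_TAC 6 of 37, 4 higher and 2 lower; the shares over all genes were 25.8% and 14.3%. None was called by edgeR in the other 8 comparisons.

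Frzb, also a secreted Wnt-binding protein and a relative of Sfrp1, held 11.8, 27.9, 35.4 and 21.3 CPM in KO_TAC. KO_sham held 6.92, 6.19, 4.20 and 7.01 CPM and FF_TAC 5.24, 10.7, 9.30 and 7.44 CPM, with no overlap. Frzb rose by 2.03 ± 0.30 (log2, SE) against KO_sham (adjusted p 0.00102) and was 1.60 ± 0.29 higher than in FF_TAC (adjusted p 0.00289). Leaving out any 1 library kept both calls, as did the haemoglobin term, at 1.70 (adjusted p 0.04) and 1.42 (adjusted p 0.018), but not in the haemoglobin-low libraries alone (1.27, adjusted p 0.344).

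Other extracellular regulators were higher in KO_TAC than in FF_TAC. Cthrc1, a collagen-associated protein also counted among the activated fibroblast markers, differed by 2.76 ± 0.57 (log2, SE, adjusted p 0.00571, 1.03 against 0.149 CPM). Its FF_TAC mean lay near the floor, as 3 counts were 0.170 CPM in FF_TAC 4, so the size of the difference is uncertain. Sost, which encodes the Lrp5 and Lrp6 antagonist sclerostin, differed by 3.47 ± 0.85 (adjusted p 0.0146; 2.92 ± 3.34 against 0.264 ± 0.212 CPM, SD, n = 4), a call lost without FF_TAC 4 (3.21, adjusted p 0.0564). Its size rested in part on KO_TAC 1, without which the difference was 2.26 and still called. Wif1, a further secreted inhibitor, was not called after TAC in the knockout (−1.59 ± 0.68, adjusted p 0.0937), nor with the haemoglobin term. It was called as lower by DESeq2 (adjusted p 0.0468), by voom (adjusted p 0.0316) and with the Myl7 covariate (adjusted p 0.0442). These called 30.9%, 53.4% and 28.2% of all genes. Of the 8 fits without 1 library, only that without KO_TAC 1 called Wif1 (−2.95, adjusted p 0.00304). The smallest change was −1.10, without KO_sham 2.

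Inside the cell, Nkd2, which restrains Dishevelled, was 0.90 ± 0.28 higher in KO_TAC than in FF_TAC (adjusted p 0.0426; lost in 6 of 8 fits, 0.65 to 0.93, adjusted p 0.0647 to 0.135, all but those without KO_TAC 1 or KO_TAC 4) and rose by 1.27 ± 0.28 (log2, SE) after TAC in the knockout (adjusted p 0.00715; 1.22 and 0.102 with the haemoglobin term). The coreceptor gene Lrp5 was lower in KO_TAC than in FF_TAC (−0.47 ± 0.14, adjusted p 0.0402), a call lost in 5 of 8 fits (without FF_TAC 1, 3 or 4, or KO_TAC 2 or 3; −0.47 to −0.37, adjusted p 0.0715 to 0.124). Gsk3b, the kinase that marks β-catenin for destruction and the other of the 2 lower genes, is named after its value was seen (−0.26 ± 0.08, adjusted p 0.0366); its call was lost without FF_TAC 1, FF_TAC 2, FF_TAC 4 or KO_TAC 3 (−0.27 to −0.23, adjusted p 0.0589 to 0.106). Lrp6 gave 0.08 ± 0.12 there (adjusted p 0.684). Axin2, the most widely used readout of β-catenin signalling, held 1.43 to 4.66 CPM in KO_TAC and 3.27 to 6.21 CPM in KO_sham and was not called (−0.43 ± 0.35, adjusted p 0.37). Myc, a target of β-catenin and of many other signals, rose by 2.44 ± 0.85 after TAC in the knockout (adjusted p 0.0465). It stood at 49.3 to 85.2 CPM in KO_TAC and 3.34 to 39.5 CPM in KO_sham, its highest KO_sham library being the haemoglobin-low KO_sham 2. With the haemoglobin term the change was 0.74 (adjusted p 0.139), and the call was lost in 6 of 8 fits (all but those without KO_sham 2 or KO_TAC 1; 2.11 to 2.56, adjusted p 0.0679 to 0.116).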

How the data were processed

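The authors deposited whole-number counts per gene, 1 column per heart; these were read as raw counts. Per the labels' protocols, RNA was poly(A)-selected and strand-specific libraries were sequenced. The submitters' processing notes name HISAT2 2.1.0, featureCounts, Subread 1.5.1 and GRCm38; the strand setting and annotation release are not given in the sources used here, so genes with exons on both strands are uncertain. Symbols, positions and exon lengths came from GENCODE M21 (55227 of 55487 rows matched). Columns were mapped by name; KO_TAC titles name both surgeries, and the genotype and treatment labels were used.

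Separate fits for the 2 cohorts, each with a mean for every group, were made in edgeR 4.0.16 (TMM, filterByExpr, quasi-likelihood F test), testing 15596 and 15745 genes over 10 comparisons. SE is the log2 fold change over the root of F. CPM were TMM-scaled over 30 libraries. Unscaled totals define haemoglobin, with a limit of 100 CPM. The fit was tested on simulated data. Over 42 pairs within groups, chi-square per degree of freedom was 6.80 to 261.57, so none was treated as a duplicate.

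Members called at least once with a mean of 1 CPM or more in the higher group, and Sfrp1, Sfrp2 and Dkk3, are given by library; of the pathway genes, the 3 called with the largest change in a comparison, and Axin2, Frzb, Wif1, Lrp5 and Lrp6, are named. The members, lists, motifs and alternatives were chosen with earlier results of these data known. Alternatives were DESeq2 1.42.0, voom with sample weights (limma 3.58.1), other size factors and filters, a replicate block, Myl7 and haemoglobin terms, other sets of libraries, and leaving out each library. Counting floors of 3 counts cover counting error only. Hearts with overexpressed miR370, which the design text mentions, were not analysed here.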

Additional observations from a re-analysis of the deposited data

Results flagged for a closer look

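Libraries far from the others of their group were looked for in the 14 genes given by library, over 84 groups of 4 hearts, and 9 were found. Chance alone flags about 1 in 20 such groups where values follow a normal distribution. That rate need not hold for skewed CPM such as those of Dkk3 and Sfrp5. Dkk3 accounted for 4 of the 9: FF_sham 2 held 180.3 CPM against 2.251 to 15.02 in the others, FF_TAC 1 held 18.2 against 3.69 to 5.182, KO_TAC 1 held 509.8 against 15.25 to 24.9, and AAV_TAC 3 held 107.3 against 4.836 to 8.394. Sfrp5 accounted for 3, in libraries that Dkk3 also named: FF_TAC 1 with 0.8454 CPM, KO_TAC 1 with 15.62 and AAV_TAC 3 with 16.93. All 4 libraries are among the 14 with Myl7 above 10 CPM. Fzd8 in KO_sham 1 stood at 13.74 CPM against 9.929 to 10.24, and Wnt5a in FF_TAC 1 at 12.96 CPM against 6.805 to 7.723.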

How the results depend on the processing

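The 14 member calls (7 in each comparison with KO_TAC) all passed under DESeq2, voom with sample weights, other size factors, the Myl7 covariate and all 30 libraries in 1 fit, 13 with no filter on low counts, 8 with only the 2 groups compared, and 3 with the haemoglobin term. The replicate numbers were not treated as pairs of hearts. Same-numbered deviations correlated above 0.1 in 9 of 24 pairs (floxed, −0.373 to 0.454, median 0.0065) and 7 of 19 (AAV9, −0.407 to 0.396, median 0.059). These values have no reference to be set against, so whether the numbers pair the hearts is not settled. With a replicate block 12 of the 14 calls passed (6 in each comparison); the others were Sfrp1 after TAC in the knockout (0.81, adjusted p 0.0507) and Fzd3 against FF_TAC (1.24, adjusted p 0.0629).

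Counts of members called moved as follows. KO_TAC against KO_sham, 7 called: 0 with the haemoglobin term and 2 to 8 without 1 library. KO_TAC against FF_TAC, 7 called: 3 with only the groups compared, 3 with the haemoglobin term, 0 in haemoglobin-low libraries alone, 5 to 8 without 1 library. The interaction, 0 called: 1 by DESeq2 and 6 by voom. TAC in PBS mice, 0 called: 1 by voom and 0 to 3 without 1 library. TAC in AAV9.Cpt1a mice, 0 called: 1 by DESeq2 and 1 by voom. The vector after sham surgery, 0 called: 3 by DESeq2, 1 by voom, 2 with no filter, 1 with all 30 libraries in 1 fit, and 0 to 5 without 1 library. For the fits with no filter, with all 30 libraries and with only the groups compared, counts over all genes are not given here. Whether the members moved with all genes in those fits can therefore not be read from these counts. Counts over all genes moved as well without 1 library. They ran from 1956 to 6441 in KO_TAC against KO_sham and from 1124 to 3845 in KO_TAC against FF_TAC. For TAC in PBS mice they ran from 0 to 1796, and for the vector after sham surgery from 1 to 2821. The cause was not tested.

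Signs turned for 5 values, given as log2 fold changes. After TAC in floxed controls, Sfrp1 gave 0.0018 in haemoglobin-high libraries alone. Sfrp2 gave −0.0019 by voom and −0.094 to 0.27 without 1 library, below 0 without FF_sham 2 or FF_TAC 2. Fzd4 gave 0.040 by voom, 0.15 with the haemoglobin term, 0.27 in haemoglobin-high libraries alone, and −0.26 to 0.081 without 1 library, above 0 without FF_TAC 2 or FF_TAC 3. Dkk3 after TAC in the knockout gave −1.48 to 1.90 without 1 library, below 0 without KO_TAC 1. Sfrp5 in KO_TAC against FF_TAC gave −0.36 by voom and −1.08 to 4.81 without 1 library, below 0 without KO_TAC 1. Depth limits the 13 members not tested.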
